A study of Mus musculus with 6 samples.

Results

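Semaphorins, plexins and neuropilins are the ligands and receptors of a guidance pathway, and their RNA was measured in single nuclei of the mouse cerebellum. The members were all genes of the count tables with a symbol of the Sema, Plxn or Nrp families, which gave 31 of 32286 genes. There were 20 semaphorins, 9 plexins and both neuropilins, and 3 antisense names of *Plxna4* were left out. Whole cerebella of 3 *Pcp2-ATXN1[82Q]* mice, called SCA1 mice here, were set beside those of 3 wild-type littermates (WT), all at 12 weeks of age on a C57Bl6 background. The transgene carries human *ATXN1* with an expanded glutamine repeat and is driven by the Purkinje cell promoter *Pcp2*, so it models the disease by expression in Purkinje cells alone. WT mice carried no transgene.

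Semaphorins are secreted or membrane-bound proteins that steer axons and migrating cells, and in the adult they act on synapses, vessels and immune cells. Most class 3 semaphorins are secreted and bind a neuropilin, which passes the signal on through a plexin A or plexin D1. Class 4, 5 and 6 semaphorins span the membrane or lie close to it and bind plexins directly, and *Sema7a* is tethered to the membrane by a lipid anchor and binds plexin C1 and integrins. Plexins signal through a cytoplasmic domain that inactivates small GTPases of the Ras and Rap type. In the cerebellum the family is known for the migration of granule cells and the wiring of Purkinje cells.

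The tables held 45473 nuclei, from 3354 to 10897 a mouse, with 18916647 UMIs (unique molecules counted) in WT mouse 2 to 98366627 in SCA1 mouse 1. Levels are CPM, counts per 1000000: the UMIs of a gene were summed over the nuclei of a mouse and cell type and divided by all UMIs of that sum. Cell types were those of the authors' SingleR labels, and 13 of 24 labels had at least 10 nuclei in each mouse. They were Purkinje cells (PCs, 292 nuclei), Bergmann glia (BG, 1243), velate astrocytes (VA, 1014), granule neurons (GN, 37532), oligodendrocytes (OL, 1384), the GABAergic labels Lgi2 (240), Cadm1 (289), Chrm2 (263), Nefh (1224) and Rab3b (458), the glutamatergic labels Nrgn (757) and Sln (104), and a label named Endothelial_Tip Dcn.Nnat (242). *Aqp4*, a marker of velate astrocytes, lay at 1151 ± 159.6 CPM in VA, and *Gabra6*, a marker of granule neurons, at 737 CPM in GN. The marker list had no separate entry for Cadm1, Chrm2, Nefh, Rab3b or Sln, so these names were taken as given. In Dcn.Nnat the endothelial genes *Cldn5* and *Pecam1* lay at 0 to 6.585 and 0 to 5.249 CPM whereas the connective tissue genes *Dcn* and *Col1a2* lay at 230.5 to 653.1 and 246.3 to 447.8 CPM. A further endothelial gene, *Flt1*, lay at 69.61 to 130.3 CPM there and at up to 12.45 CPM in a mouse of any other of the 13 labels. The markers were thus mixed, and the label is called Dcn.Nnat below. The 5 Purkinje markers *Pcp2*, *Calb1*, *Itpr1*, *Ppp1r17* and *Car8* together lay at 11060 to 18640 CPM in PCs and at 79.62 to 2132 CPM in the other labels. None of them was at 0 in all mice of any of the 13 labels. *Pcp2* alone reached 501 CPM in OL of WT mouse 1, beside 840.2 in PCs of that mouse and 300.7 in PCs of WT mouse 3. The 3 granule neuron markers *Gabra6*, *Fat2* and *Slc17a7* together lay at 1252 to 1501 CPM in GN and at 13.26 to 878.4 in the other labels, the top value being in Sln (378.2 to 878.4), with none at 0 in all mice of a label. The part of both lists in low levels of other genes was not tested.

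The same label was highest in all 6 mice for 12 of the 31 members and in at least 5 mice for 18, and for 7 members the highest label did not overlap the next in any mouse. The Dcn.Nnat label was highest for 7 members, Sln for 5, Lgi2, Nrgn and OL for 3 each, VA, Nefh and GN for 2 each, BG, PCs, Chrm2 and Rab3b for 1 each and Cadm1 for none. These ranks cover the 13 labels alone, and smaller labels that exceed them are given further on. Differences from the mean of the other 12 labels were fitted with edgeR on the sums of all 6 mice. Because the labels were assigned from all genes, members included, these differences are a description. Their errors come from the scatter of the sums around the label and mouse terms over all 13 labels, not from 1 label alone. Of 377 member and label pairs, 128 (34%) were higher, beside 23.5% of pairs over all genes, and 113 (30%) were lower, beside 19.5%.

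**Figure D1:**
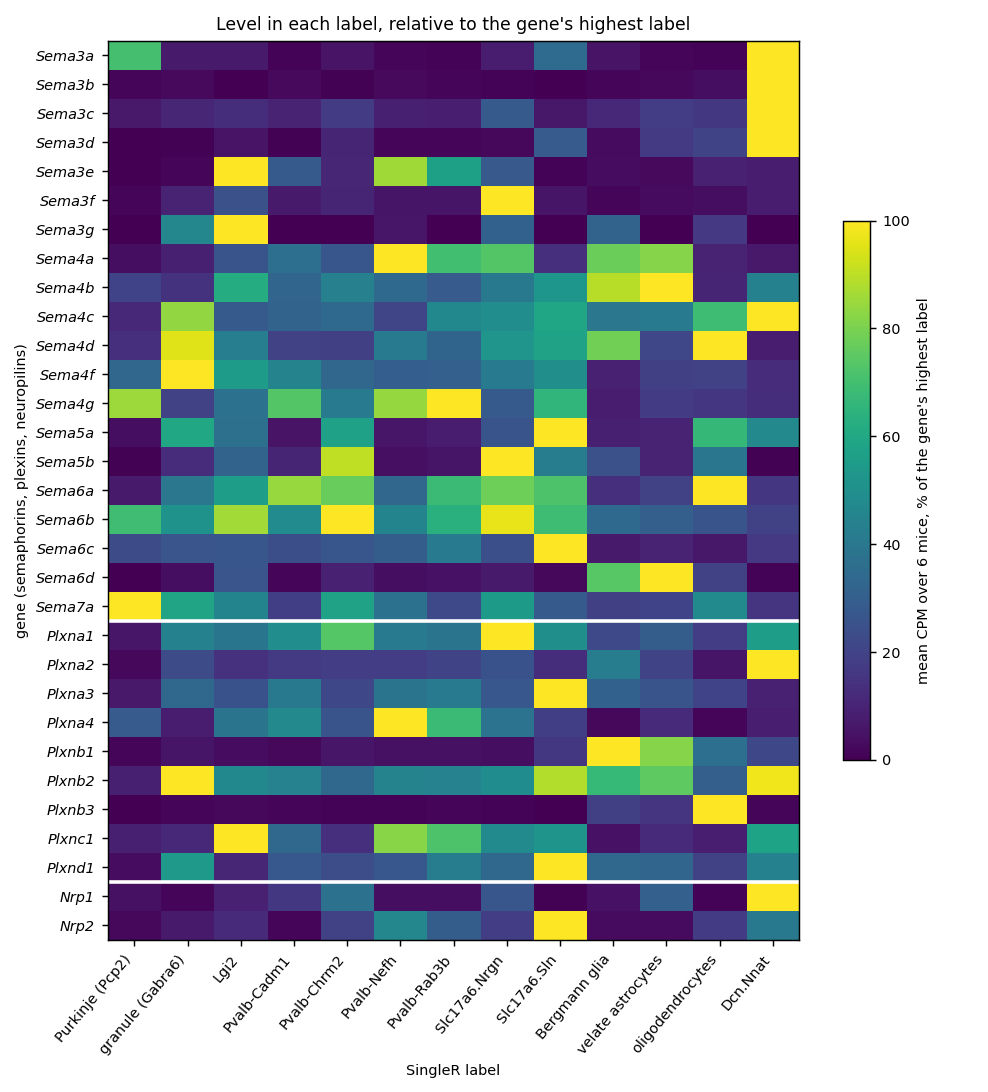
Mean level of each of the 31 members (rows) in the 13 labels (columns) over 6 mice, as a percentage of the gene's own highest label, so that genes cannot be compared with one another in height. Secreted class 3 ligands peak in several unlike labels, *Sema6d* peaks in both astrocyte labels and *Plxnb3* in oligodendrocytes.

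The secreted class 3 ligands, 7 in number, were spread over the Dcn.Nnat label, PCs and other neurons. *Sema3a*, a repellent that acts through *Nrp1* and A plexins (chr5:13125414-13602565 on the plus strand, mm10), lay at 305 to 981.1 CPM in the Dcn.Nnat label with a median of 461.5, at 217 to 534.6 in PCs with a median of 414.3, and at 196.1 ± 90.7 (SD, n = 6) in Sln. The ranges of the Dcn.Nnat label and PCs overlapped, and the Dcn.Nnat label was highest in 3 of 6 mice. In the fit, *Sema3a* was 4.44 log2 units above the other labels in PCs and 4.06 in the Dcn.Nnat label, and the difference was -2.61 in OL and -2.89 in Cadm1. Scaling by library size alone shifts the median of all genes by -0.552 in PCs and by 0.2675 in the Dcn.Nnat label. The order of these labels in the fit is thus not read as a difference between them.

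*Sema3d*, another secreted ligand (chr5:12383385-12588948), lay at 171.2 to 663.7 CPM in the Dcn.Nnat label with a median of 333.2, clear of the next of the 13 labels. Its log2 difference from the other labels was 4.72 ± 0.23 (SE). Sln followed at 104.8 ± 30.16 CPM, OL at 75.24 ± 42.28 CPM and VA at 61.55 CPM, and PCs held 0.8547 CPM. Others of the class were highest in the same label among the 13. *Sema3c*, which acts on vessels and the heart outflow as well as on axons, lay at 16.7 to 184.4 CPM there with a median of 49.69, a difference of 2.87 ± 0.25. *Sema3b* lay at 21.17 ± 11.49 CPM there and at up to 2.591 CPM in a mouse of any other of the 13 labels.

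*Sema3f*, the ligand of *Nrp2* (chr9:107681500-107710475 on the minus strand), was highest in Nrgn neurons in all 6 mice. It lay at 32.84 to 63.42 CPM there with a median of 44, and the next label, Lgi2, was at 11.18 ± 6.983 CPM. The log2 difference was 4.17 ± 0.18. *Sema3e*, which binds plexin D1 without a neuropilin, was highest in 3 inhibitory labels, with Lgi2 at 201 ± 27.19, Nefh at 172.7 ± 53.35 and Rab3b at 114.6 ± 25.18 CPM. The leading 2 did not separate, as Lgi2 was highest in 3 of 6 mice. GN held *Sema3e* at 3.255 CPM and PCs at 0.7778 CPM. *Sema3g*, known from endothelium, had a mean of at most 0.6916 CPM in any of the 13 labels and reached 3.549 CPM in a single mouse of Lgi2.

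Among the 6 class 4 ligands, *Sema4f* was highest in GN in all 6 mice, at 40.56 to 51.49 CPM with a median of 43.31 and clear of Lgi2 at 24.91 ± 5.551 CPM, a log2 difference of 1.87 ± 0.11. *Sema4d*, the plexin B1 ligand known from oligodendrocytes and T cells, did not separate OL (118.9 ± 19.44 CPM) from GN (113.2 ± 13.5), with BG next (93.4), and was lowest in the Dcn.Nnat label (9.069). *Sema4a* and *Sema4b* were called higher in both astrocyte labels: *Sema4b* was at 48.72 ± 6.46 CPM in VA and 43.55 ± 3.856 in BG, and *Sema4a* at 28.17 in VA and 26.73 in BG, beside 34.48 ± 7.414 in Nefh. *Sema4g* was highest in inhibitory labels, with Rab3b at 77.95 ± 12, PCs at 66.59 ± 12.29 and Nefh at 65.52 CPM, and the glutamatergic label Sln, at 51.34, was called higher as well. *Sema4c*, a plexin B2 ligand, had its highest mean, 11.84 CPM, in the Dcn.Nnat label, where single mice reached 20.47.

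Of the 2 class 5 ligands, whose outer part carries thrombospondin repeats, *Sema5a* was highest of the 13 labels in Sln in 5 of 6 mice. It lay at 141.9 to 272.6 CPM with a median of 191.9, a log2 difference of 2.25 ± 0.27, and OL (133.5 ± 38.79), GN (119.9) and Chrm2 (114.2) came next. Its levels in PCs (7.792), Cadm1 (10.68) and Nefh (12.19) were low. Among the 13 labels *Sema5b* was highest in Nrgn (69.65 ± 32.98) and Chrm2 (62.95 ± 19.6), which were 3.31 and 3.01 log2 units above the other labels.

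Of the 4 class 6 ligands, *Sema6d* was called higher in both astrocyte labels and the other members were called lower there. *Sema6d*, a transmembrane ligand of plexin A1 (chr2:124089969-124667770), lay at 1343 to 2679 CPM in VA with a median of 1977 and at 873.9 to 1953 CPM in BG with a median of 1524. VA was the higher in all 6 mice although the ranges overlap, and Lgi2 (534.6) and OL (402.6) followed, down to 7.045 CPM in PCs. The log2 difference from the other labels was 4.34 ± 0.11 in VA and 4.01 in BG. *Sema6a*, a ligand of plexins A2 and A4, was low in astrocytes. It was at 306.6 ± 44.31 CPM in OL and 259.2 ± 81.78 in Cadm1 but at 58.9 in VA, 40.92 in BG and 22.43 in PCs. *Sema6c* was highest in Sln in all 6 mice, at 28.62 to 98.27 CPM with a median of 45.8, a difference of 2.06 ± 0.23. *Sema6b* did not separate Chrm2 (24.3 ± 11.05 CPM) from Nrgn (23.54).

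*Sema7a*, the lipid-anchored ligand of plexin C1 (chr9:57940112-57962865), was highest of the 13 labels in PCs in 5 of 6 mice. Its PC level was 35.17 to 85.16 CPM with a median of 65.71, beside 36.74 ± 14.73 in GN and 36.29 in Chrm2. The log2 difference of PCs from the other labels was 2.23 ± 0.15. *Sema3a*, *Sema7a*, *Sema4g*, *Plxna4*, *Sema6b*, *Sema4f* and *Sema6c* were the 7 members called higher in PCs (24.1% of those tested, beside 30.4% of all genes), against 18 called lower (62.1% of the 29 tested, beside 27.6% of all genes lower in PCs). With scaling by library size alone, which lowers the median of all genes in PCs by 0.55 log2 units (shift -0.552), the split was 5 higher and 21 lower.

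**Figure D2:**
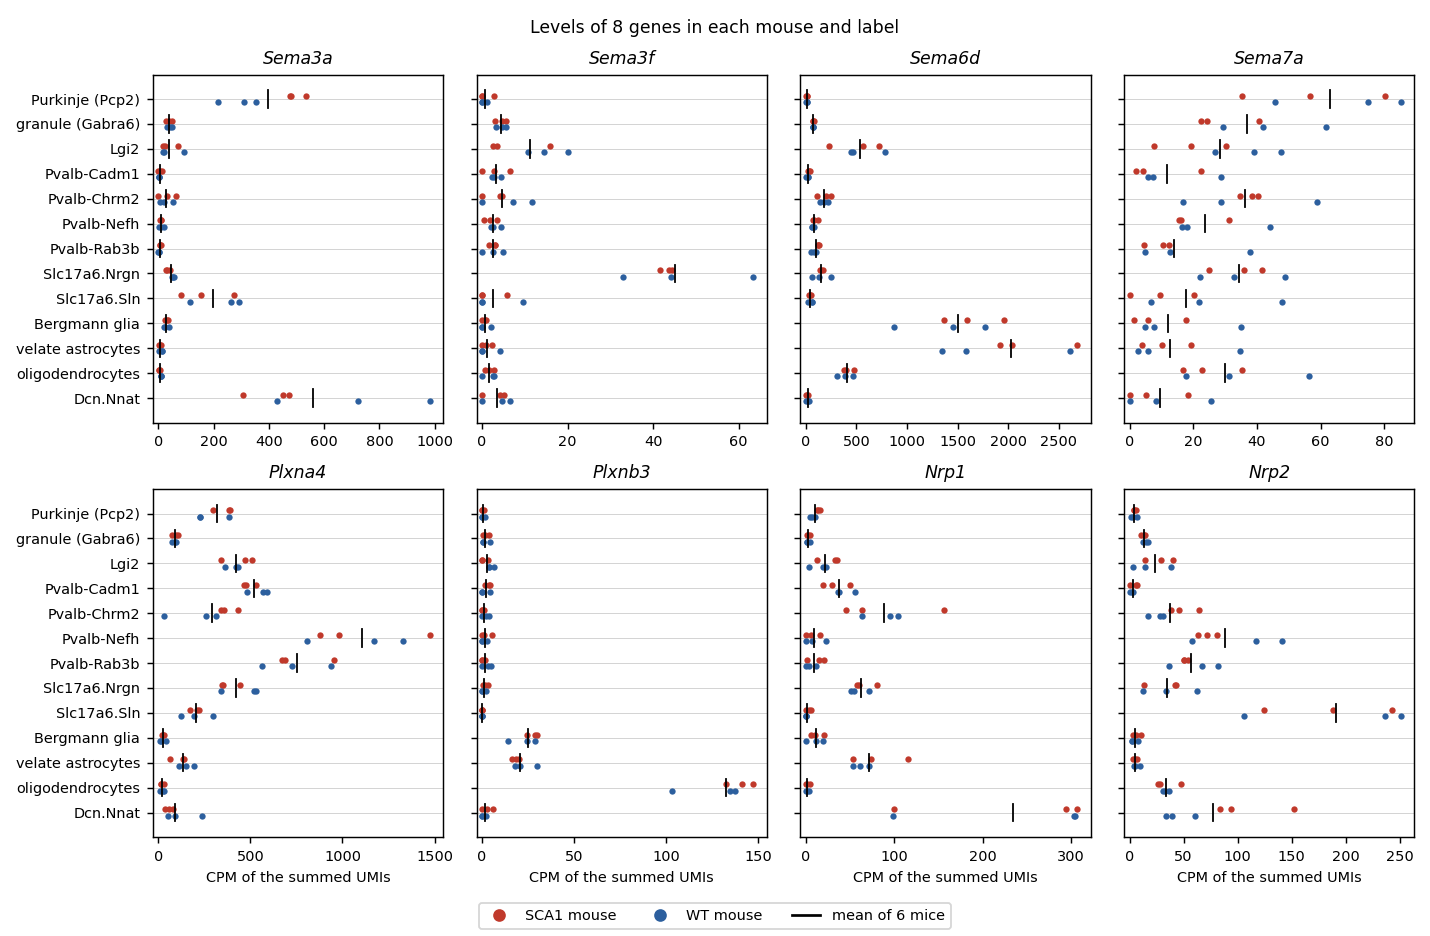
Level in CPM of 8 members in the 13 labels, with a dot for each SCA1 mouse (red) and each WT mouse (blue) and a black line at the mean of 6 mice. *Sema6d*, *Plxna4* and *Plxnb3* each rise far above most labels in every mouse, while *Sema3a* in the Dcn.Nnat label and in PCs overlaps.

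The neuropilins, the co-receptors that most class 3 ligands need,, differed in their highest label. *Nrp1* (chr8:128358604-128503363) was highest of the 13 labels in the Dcn.Nnat label in all 6 mice, at 98.17 to 306.9 CPM with a median of 298.9 and a log2 difference of 3.69 ± 0.23. Chrm2 (88.15 ± 39.72), VA (71.46 ± 23.23) and Nrgn (62.67) followed, and Sln, at 1.63 CPM, was lowest. *Nrp2* (chr1:62703285-62818695) was highest in Sln in all 6 mice, at 105.6 to 251.1 CPM with a median of 212.6 and a difference of 3.07 ± 0.24, followed by Nefh at 88.71 ± 32.98 and the Dcn.Nnat label at 77.4. The label that led for *Nrp2* was thus the lowest for *Nrp1*, and Cadm1 held 37.98 CPM of *Nrp1* and 2.982 of *Nrp2*. Other labels went together: both genes were called higher in the Dcn.Nnat label, Chrm2 and Nrgn and lower in GN, and PCs held 10.92 and 4.164 CPM.

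Among the A plexins, the signalling partners of neuropilins and direct receptors of class 6 ligands, *Plxna4* (chr6:32144268-32588192 on the minus strand) was highest in inhibitory labels. Nefh lay at 806.4 to 1473 CPM with a median of 1077, the highest label in all 6 mice, and Rab3b at 755.3 ± 155.4 and Cadm1 at 518.7 CPM came next. PCs held 318 CPM, whereas OL (20.84) and BG (24.18) were lowest, and the differences were 2.63 ± 0.13 in Nefh and -3.35 in OL. *Plxna2*, the *Sema6a* receptor, had another leader: the Dcn.Nnat label was highest in all 6 mice (335.7 to 666.9 CPM, median 461.4) and clear of BG (202.1 ± 59.27), with PCs lowest at 9.594. Both *Plxna4* and *Plxna2* were called higher in Nrgn and lower in OL. *Plxna1* was highest in Nrgn in 5 of 6 mice, at 10.95 to 63.42 CPM with a median of 37.93, a difference of 1.68 ± 0.16. *Plxna3* was at 28.07 ± 14.69 CPM in Sln followed by Rab3b at 11.69.

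Of the B plexins, *Plxnb3* and *Plxnb1* were highest in glia. *Plxnb3* (chrX:73757090-73772514) stood further above the mean of the other labels than any other of the 29 members tested, 6.28 ± 0.22 log2 units in OL, with 103.4 to 147.3 CPM there and a median of 136. BG (25.05 ± 5.793) and VA (20.48) were next, and the highest mean of a neuron label was 2.85 CPM. *Plxnb1*, the *Sema4d* receptor (chr9:109095389-109119917), was highest in BG in 5 of 6 mice, at 54.48 to 137.7 CPM with a median of 87.24, and overlapped VA at 76.03 ± 22.73. The differences were 3.78 ± 0.17 in BG and 3.35 in VA, and OL stood at 34.15 CPM. *Plxnb2* had no clear leader, as GN (29.31 ± 8.768 CPM) and the Dcn.Nnat label (28.73) overlapped and GN led in 2 of 6 mice.

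*Plxnc1*, the *Sema7a* receptor, was highest in Lgi2 in 5 of 6 mice, at 67.44 to 150.3 CPM with a median of 111.3 and a difference of 2.10 ± 0.11. Nefh (90.88 ± 12.45) and Rab3b (79.47) were next, and BG (5.197) lowest. *Plxnd1*, a receptor best known from vessels, had its highest mean among the 13 labels, 13.96 ± 8.81 CPM, in Sln.

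Known ligand and receptor partners were then read side by side, as levels of each gene on its own scale. For *Sema3a*, the PCs that held much of the ligand had 10.92 CPM of *Nrp1* and 318 of *Plxna4*, while the Dcn.Nnat label was high in both ligand and *Nrp1*. *Sema3f* was highest in Nrgn, where *Nrp2* was at 34.44 CPM and *Plxna3* at 7.602, while both receptors were highest in Sln, itself at 2.567 CPM of *Sema3f*. *Sema6a* and *Plxna2* were apart in the Dcn.Nnat label (48.22 and 480.2 CPM) and in OL (306.6 and 27.94). In Nrgn both were called higher, at 239.5 and 121.6 CPM. *Sema6a* and its other partner *Plxna4* met in Cadm1 (259.2 and 518.7 CPM) and were apart in OL (306.6 and 20.84). *Sema5a* and *Plxnb3* met in OL, at 133.5 and 132.7 CPM. Among the 13 labels *Sema7a* peaked in PCs, where *Plxnc1* was at 9.711 CPM, and *Plxnc1* peaked in Lgi2, where *Sema7a* was at 28.38. *Sema4d* and *Plxnb1* met in BG (93.4 and 93.09 CPM), while GN held *Sema4d* at 113.2 and *Plxnb1* at 5.182. For *Sema6d* the partner *Plxna1* was at 11.33 CPM in VA and 8.477 in BG, and its highest mean was 38.45, in Nrgn. For *Sema3e* and *Sema3c* the partner *Plxnd1* had its highest mean among the 13 labels, 13.96 CPM, in Sln, and *Plxnb2*, the partner of *Sema4c*, had its highest, 29.31, in GN.

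Over whole labels, Nrgn neurons had the most members called higher, 16 of 29 (55.2%, beside 27.9% of all genes), led by *Sema3f*, *Sema5b* at 3.31 and *Nrp1* at 2.03 log2 units, and 2 lower (6.9%, beside 20.1%). Sln neurons had 12 higher (41.4%, beside 10.4%) and 4 lower (13.8%, beside 10.4%), the higher ones with *Nrp2*, *Sema3d* at 2.75 and *Sema3a* at 2.48 among them. Lgi2 (11 higher and 1 lower, beside 22.1% and 15.5%) and Chrm2 (11 and 3, beside 21.8% and 13.8%) leaned the same way, with *Sema3e* at 3.71 and *Sema6d* at 2.28 in Lgi2. Glia were split: BG had 9 higher and 13 lower (beside 27.6% and 24.8%), VA 8 and 14 (26.9% and 23.7%) and OL 11 and 15 (29.3% and 26.1%). GN had 11 and 12 (34.7% and 24.4%) and the Dcn.Nnat label 11 and 12 (25.5% and 27.4%). Cadm1 had 5 and 8 (16.2% and 13.6%), Nefh 8 and 7 (17.6% and 14.6%) and Rab3b 8 and 4 (15% and 10.8%).

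The oligodendrocyte label held nuclei of more than 1 kind. Clusters with precursor markers made up 74 of its 1384 nuclei (5.35%) and 7.96% of its UMIs, and held *Pdgfra* at 827 CPM beside 2.249 in the other clusters. *Sema3d* and *Sema5b* came mostly from them, with 79.6% and 94.2% of the UMIs of the label. In the precursor clusters *Sema3d* lay at 692.3 ± 285.7 CPM, beside 14.86 ± 5.481 in the rest, and in every mouse it was higher there: 438.5, 517.8 and 1145 CPM in SCA1 mice 1 to 3 and 416, 808 and 828.7 in WT mice 1 to 3. *Sema5b* was at 269.3 ± 101.9 beside 1.132 ± 0.915 CPM, *Sema3e* at 126.5 ± 58.39 beside 7.223, and *Sema5a* at 395.2 ± 110.8 beside 112.3 ± 35.04. The plexin B3 receptor ran the other way, at 56.53 ± 41.09 beside 141.5 ± 19.97, as did *Sema4d* in 5 of 6 mice (69.11 ± 45.95 beside 124.5 ± 18.26, with SCA1 mouse 1 at 158.8 beside 153.7). *Sema6d* did not separate them (421.3 ± 83.41 beside 402.3 ± 71.86). The precursor clusters had 6 to 20 nuclei a mouse, and since clusters and labels were made from all genes these differences are descriptive.

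**Figure D3:**
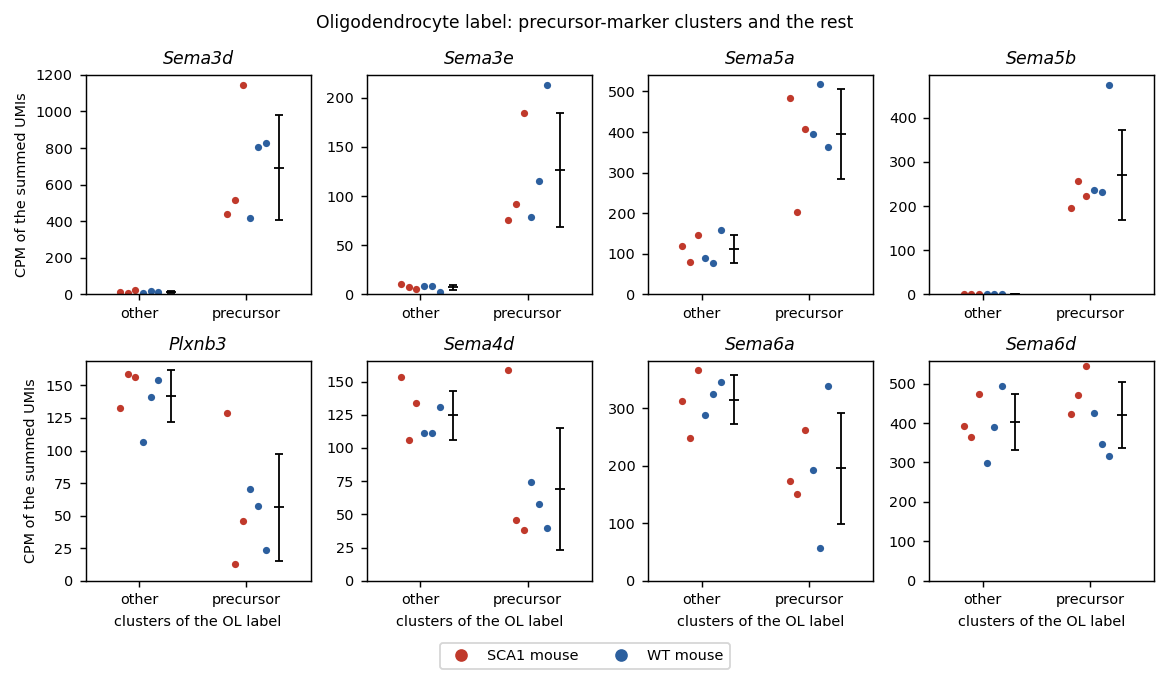
Level in CPM of 8 members in the oligodendrocyte label, split into clusters with precursor markers and the other clusters, with a dot for each of 6 mice and the mean ± SD. *Sema3d*, *Sema3e*, *Sema5a* and *Sema5b* are higher in the precursor clusters, and *Sema6d* overlaps between both.

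Labels with fewer nuclei were pooled over mice and have no test. In 89 nuclei of the endothelial label Flt1.Lrg1, *Sema3c* was at 611.6 CPM (95% Poisson interval 562 to 664.4, counting error only), *Sema7a* at 255.6 (223.9 to 290.5) and *Plxnd1* at 73.17 (56.71 to 92.93). *Sema3g*, which had few UMIs in the larger labels, was at 24.03 CPM there (15.06 to 36.38, from 22 UMIs). These vessel values are above the highest of the 13 larger labels for each of the 4 genes. In 125 microglial nuclei *Nrp1* was at 488.4 CPM (434.8 to 546.7) and *Plxnb2* at 71.15, both above their highest mean in the 13 labels, and in 83 choroid plexus nuclei *Plxnb2* was at 98.29. The Polydendrocyte label, a name for oligodendrocyte precursors, had 12 nuclei with *Sema5a* at 2163 CPM (1972 to 2368). This and the 395.2 CPM of the precursor clusters are above the mean of 199.9 in Sln. The precursor clusters also had means of *Sema3d* (692.3) and *Sema5b* (269.3) above the highest means of the 13 labels (365 and 69.65).

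The other genes of the pathway were taken from a list of 34, with 8 co-receptors and 26 cytoplasmic partners of plexins and neuropilins, of which 29 were tested across labels. Over the 13 labels, 29.4% of their 377 tests were higher and 30.8% lower, beside 23.5% and 19.5% over all genes. OL had 10 of 29 higher (34.5%, beside 29.3%) and 15 lower (51.7%, beside 26.1%), and PCs had 12 higher (41.4%, beside 30.4%) and 11 lower (37.9%, beside 27.6%). GN had 13 higher (44.8%, beside 34.7%) and 9 lower (31%, beside 24.4%), and Nefh had 4 higher (13.8%, beside 17.6%) and 10 lower (34.5%, beside 14.6%). In the other 9 labels 17.2% to 37.9% were higher, beside 10.4% to 27.9%, and 20.7% to 37.9% were lower, beside 10.4% to 27.4%. *Itga1*, an integrin subunit, was higher in the Dcn.Nnat label by 4.00 and in PCs by 3.34 log2 units. *Mical1*, an oxidoreductase that disassembles actin under plexins, was higher in BG by 3.17, the exchange factor gene *Farp1* in VA by 3.31 and the kinase gene *Pak1* in OL by 2.58.

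SCA1 and WT mice were compared within each label, with 3 mice a group, genotype and batch as terms and adjustment over all genes of the label. The transgene was read first: human *ATXN1* had 12, 15 and 19 UMIs in PCs of SCA1 mice 1 to 3 and 0 in each WT mouse, while in GN it lay at 0.537 to 1.23 CPM in SCA1 mice and at 0.394 to 1.12 in WT mice. Because a member needs enough counts to be tested, between 9 (Cadm1) and 30 (GN) of the 31 members were tested in a label, 234 tests in all. None was called by edgeR's quasi-likelihood test with Benjamini-Hochberg adjustment, beside 0.00156% of 128055 tests over all genes, and the smallest adjusted p was 0.691, for *Sema3a* in PCs. DESeq2 called 0 as well. At an unadjusted p under 0.05 there were 12 (5.13%, beside 1.87%), and in 14 pairs the SCA1 and WT mice did not overlap (5.98%, beside 5.55%), 8 above (3.42%, beside 3.32%) and 6 below (2.56%, beside 2.23%). The share without overlap was thus near that of all genes. Over the labels, the median log2 fold change of the members lay between -0.23 (VA) and 0.17 (BG), and that of all genes between -0.01 and 0.02.

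**Figure D4:**
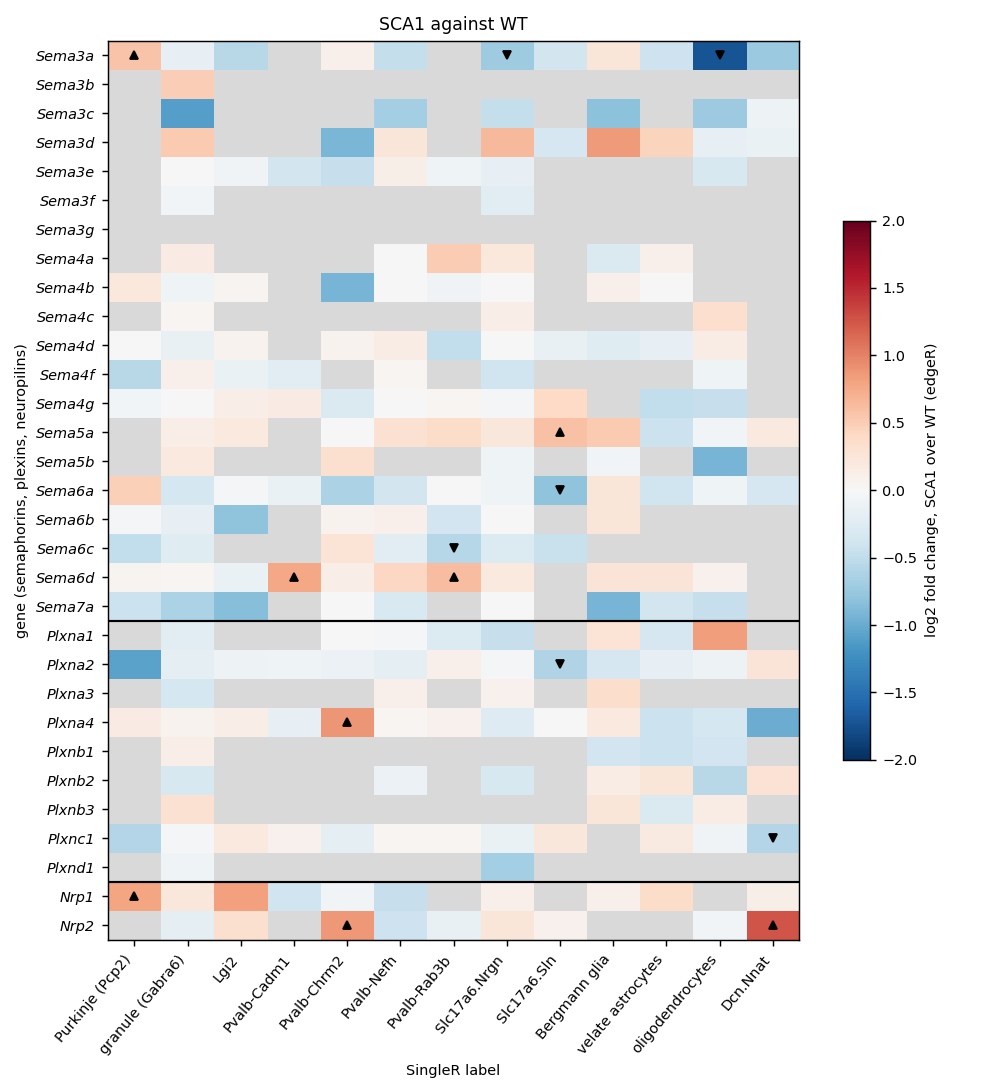
Log2 fold change of SCA1 against WT for each member (rows) in each label (columns), gray where a gene had too few counts to be tested. Triangles mark the 14 pairs in which the mice of the groups do not overlap, pointing up for SCA1 above and down for SCA1 below, and no pair passed the adjusted threshold.

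In PCs, the cells in which the promoter drives the transgene, 14 members were tested. *Sema3a*, chosen for mention after its values were seen, was at 475.9, 479.4 and 534.6 CPM in SCA1 mice 1 to 3 and at 311.6, 217 and 352.7 in WT mice 1 to 3. Every SCA1 mouse was above every WT mouse, with a log2 fold change of 0.57 ± 0.24 (SE), which did not pass the test (edgeR adjusted p = 0.691) and was 0.35 without WT mouse 2. *Nrp1*, the co-receptor of *Sema3a*, was at 12.65, 13.88 and 16.03 CPM in SCA1 PCs and at 4.937, 7.233 and 10.77 in WT PCs. It did not overlap either, at 0.78 ± 0.38 (edgeR adjusted p = 0.795), and the fold change was 0.52 without WT mouse 1. These 2 of 14 members (14.3%) stand beside 12% of all genes with every SCA1 mouse above every WT mouse in PCs, a share near theirs. Every SCA1 mouse was below for 2.57% of all genes in PCs, so such rises were common there. Over all 13 labels 3.32% were above.

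*Sema3a* was tested in 11 labels and its log2 fold change was above 0 in 3 and below 0 in 8 of them, labels that share the library of each mouse. In the Dcn.Nnat label, where its mean was highest, it was at 305, 451.4 and 471.5 CPM in SCA1 mice and at 427.7, 981.1 and 722.2 in WT mice, with overlap, at -0.75 ± 0.27 (unadjusted p = 0.0181, edgeR adjusted p = 0.9998). In Nrgn neurons it was at 28.61, 44.1 and 31.49 CPM in SCA1 mice and at 52.16, 51.09 and 57.31 in WT mice, below without overlap at -0.70 ± 0.22 (edgeR adjusted p = 0.9999). In OL it was at 4.768, 2.34 and 1.292 CPM in SCA1 mice and at 11.45, 10.36 and 8.196 in WT mice, a log2 fold change of -1.73 ± 0.51 from 63 UMIs in all (edgeR adjusted p = 1). Its level there reached the cutoff of the count filter in each WT mouse and in no SCA1 mouse. The gene was thus tested in OL only through the group where it was higher, and its OL values are a description. Every SCA1 mouse was below for 1 of 27 tested members in Nrgn, beside 2.21% of all genes. In OL this held for 1 of 21, beside 1.4%. The 5 Purkinje markers together, none of them at 0 in all mice of OL or Nrgn, were at 1056, 657.7 and 245.6 CPM in OL of SCA1 mice and at 1985, 707.4 and 501.1 in OL of WT mice. In Nrgn they were at 525.6, 350.4 and 230.5 in SCA1 mice and at 920.1, 262.8 and 308 in WT mice. These sums overlapped between the groups, and their part in the *Sema3a* values was not tested.

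*Sema6d* was without overlap in Rab3b and Cadm1 and passed the test in no label. In Rab3b 2 of 15 tested members were without overlap, beside 5.19% of all genes, and in Cadm1 1 of 9, beside 5.65%. In Rab3b it was at 122.8, 117.7 and 129.8 CPM in SCA1 mice and at 85.51, 50.91 and 101.2 in WT mice, without overlap (0.62 ± 0.28, edgeR adjusted p = 0.9999, and 0.37 without WT mouse 2). In Cadm1 it was at 36.83, 29.2 and 25.78 beside 24.27, 25.67 and 4.878, also without overlap (0.77 ± 0.46), and the fold change was 0.38 without WT mouse 3 and 1.197 without WT mouse 2. Where the gene is highest the groups overlapped: VA held 1919, 2035 and 2679 CPM beside 1343, 1581 and 2613 (0.25 ± 0.34, from 0.08 without WT mouse 2 to 0.58 without WT mouse 3), and BG 1591, 1368 and 1953 beside 873.9, 1457 and 1774 (0.26 ± 0.32, and -0.03 without WT mouse 1). VA and BG were chosen for mention after their values were seen. The study names *Sema6d* among the genes most upregulated in its SCA1 VA, from limma on nuclei. That unit differs from the sums per mouse tested here, on which the gene was not called in VA.

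Further ligands did not overlap in single labels. In Sln, *Sema5a* was at 272.6, 238.5 and 211 CPM in SCA1 mice and at 172.8, 141.9 and 162.4 in WT mice, a log2 fold change of 0.59 ± 0.26 (edgeR adjusted p = 0.998). *Sema6a* in the same neurons was at 145, 152.7 and 171.2 beside 216, 349.4 and 290.9, or -0.80 ± 0.25 (edgeR adjusted p = 0.998), opposite in sign to *Sema5a*. Sln had 3 of 11 tested members without overlap, *Plxna2* at -0.60 being the other (-0.35 without SCA1 mouse 3), beside 7.12% of all genes. In Rab3b, *Sema6c* was at 19.78, 14.9 and 16.41 beside 25.85, 25.45 and 27.14 (-0.57 ± 0.35).

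Among the receptors, *Nrp2* in the Dcn.Nnat label had the largest rise without overlap, at 94.17, 83.99 and 152.6 CPM in SCA1 mice and 60.77, 39.51 and 33.39 in WT mice, a log2 fold change of 1.26 ± 0.39 (edgeR adjusted p = 0.9998). *Plxnc1* in that label was at 63.46, 39.37 and 49.72 beside 79.47, 85.6 and 66.79, or -0.58 ± 0.33. Its connective tissue gene *Dcn* was at 653.1, 333.3 and 418.3 CPM in SCA1 mice and at 355.3, 230.5 and 254.6 in WT mice. *Col1a2* was at 417.6, 309.7 and 348 beside 313.2, 447.8 and 246.3. Both overlapped between the groups, and the part of the label's make-up in the *Nrp2* and *Plxnc1* values was not tested. *Nrp2* was above in Chrm2 as well, named here after its values were seen, at 38.01, 64.11 and 45.9 beside 30.93, 27.98 and 16.67 (0.87 ± 0.35, from 0.575 without WT mouse 3 to 1.42 without WT mouse 1). *Plxna4* in Chrm2 was at 358, 338.9 and 431.2 CPM beside 314, 33.57 and 259.5, or 0.88 ± 0.48, and the fold change was 0.39 without WT mouse 2, the shallowest library, and 1.45 without WT mouse 3. The share without overlap over all genes was 5.47% in the Dcn.Nnat label and 6.81% in Chrm2. Only in SCA1 mouse 1 did Chrm2 nuclei (38) lie in a Seurat cluster whose main label was Chrm2. The Chrm2 changes could thus not be compared with labels shared with the cluster. Neither could the changes named in Rab3b, Sln, Nrgn and the Dcn.Nnat label. In Rab3b no mouse had nuclei in a cluster of that main label, and in the others at least a single mouse had none.

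*Sema7a* in GN had the smallest unadjusted p of the members although the groups overlapped, and it is named after its values were seen. It was at 40.57, 24.32 and 22.41 CPM in SCA1 mice and at 61.8, 42.01 and 29.33 in WT mice, with a log2 fold change of -0.63 ± 0.14 (edgeR adjusted p = 1). SCA1 mouse 1 and WT mouse 1, which form a batch by their library numbers, had the highest level of their genotype, and SCA1 mice lay below WT mice within each batch. The Purkinje marker *Pcp2* in GN was at 282.7, 243.6 and 47.95 CPM in SCA1 mice and at 489.2, 214.5 and 95.75 in WT mice. *Calb1* there was at 207.3, 155.6 and 53.07 beside 372.7, 162.4 and 88.73. Both overlapped between the groups, and their part in the *Sema7a* values was not tested.

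**Figure D5:**
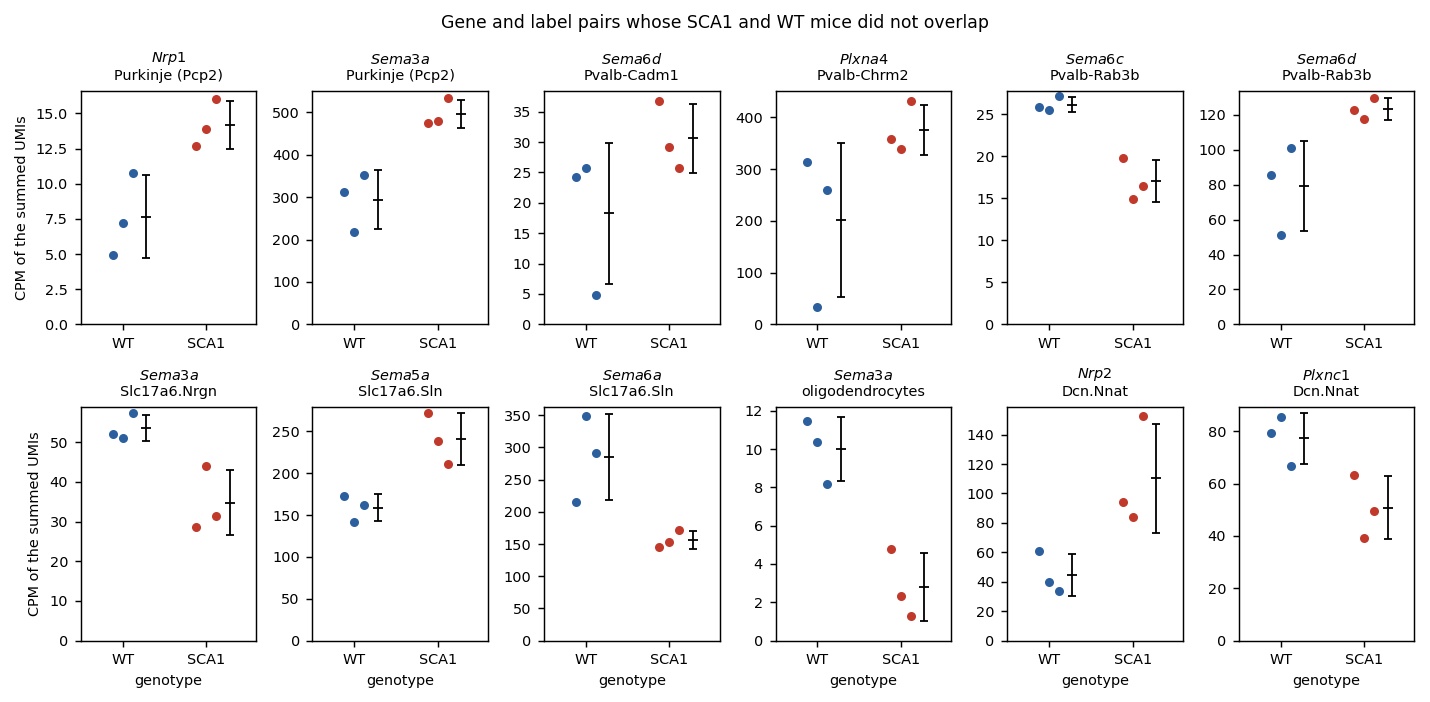
Level in CPM of 12 of the 14 member and label pairs without overlap, with a dot for each SCA1 and each WT mouse and the mean ± SD of 3 mice. The scatter within a genotype is wide in several panels, as in *Plxna4* in the Chrm2 label, where a single WT mouse lies far below the others.

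The SCA1 difference of each label was then set against that of GN, in a fit with an interaction term. None of 349 member tests was called, beside 0.00364% over all genes (14 at an unadjusted p under 0.05, or 4.01%, beside 2.28% over all genes). *Sema3a* in PCs differed from GN by 0.72 ± 0.26 and in OL by -1.57, and *Nrp2* in the Dcn.Nnat label by 1.43, each with an adjusted p of 1 by edgeR. Without WT mouse 1, *Plxna4* in Chrm2 was called, at 1.42 ± 0.33 (edgeR adjusted p = 0.0403). That fit left WT mouse 2, the shallowest library, at 33.57 CPM and WT mouse 3 at 259.5 CPM.

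Of the 34 other pathway genes, 15 (Sln) to 33 (GN) were tested between SCA1 and WT in a label, and edgeR called 0 of these 326 tests, with 4 (1.23%, beside 1.87% over all genes) at an unadjusted p under 0.05. The lowest p in PCs belonged to *Itga1*, an integrin subunit, at -1.28 ± 0.25 (edgeR adjusted p = 0.142), and *Dpysl5*, a collapsin response mediator gene, was at -1.27 ± 0.43 (edgeR adjusted p = 0.506). *Gipc1*, whose product binds the tail of neuropilin 1, was at 0.96 in Nrgn and 0.71 in OL. These 4 were the pairs of a list gene and a label with an unadjusted p under 0.05.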

How the data were processed

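Nuclei of whole cerebella were sequenced in 6 libraries, 1 per mouse. The deposited UMI counts are whole numbers that the authors made with Cell Ranger (5.0.1 in the study's methods, while the submitters' processing notes also list 4.0.0 and 6.0.1) against mm10 with the human *ATXN1* locus added. Unspliced reads were kept, so introns count, and debris was removed with DIEM at 1000 UMIs, or 3000 UMIs in the first sequencing run. The authors' SingleR labels, made with a DropViz reference, were used as cell types, and no doublet caller was run here. Pairs of libraries shared 7 to 44 barcodes.

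UMIs were summed per mouse and label for 13 labels with at least 10 nuclei in each mouse. Genes were filtered with filterByExpr (minimum count 10, minimum total 15), scaled by TMM and tested with edgeR 4.0.16 (quasi-likelihood) in R 4.3.3, with Benjamini-Hochberg adjustment over all genes of a label and a threshold of 0.05. The terms were genotype and batch. The study fitted these terms with limma on nuclei, and sums per mouse were used here because nuclei of a mouse are not replicates. Batch was read from the library numbers, which put SCA1 mouse 1 and WT mouse 1 apart, and the fewest UMIs of a nucleus were 3890 and 3932 in these and 1000 to 1739 in the others. Labels were compared in a fit over 13 labels with mouse as a block, and the interaction with granule neurons also had mouse as a block. Alternatives included DESeq2 1.42.0, RLE factors, no filter, nuclei of at least 3000 UMIs, labels shared with the Seurat cluster and leaving out each mouse. The fits were tried on simulated data with a single fixed spread and large changes in genes above a count floor. Those data do not show how often smaller changes or changes at low counts would be found.

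Named by rule were the members called between genotypes, the largest rise and fall per label among pairs without overlap, and the 3 largest label differences among members highest there in at least 5 of 6 mice. The members and lists were chosen with earlier results of these data known. Positions are from GENCODE M21 on mm10, where 10 members overlap a gene of the same strand and 12 a gene of the other, so their reads may be shared. CPM is a share of the RNA of a label and cannot show a change of its total, and depth limits the small labels, with 11 to 26 nuclei a mouse in Sln.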

Additional observations from a re-analysis of the deposited data

Results flagged for a closer look

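*Sema3a* had fold changes of opposite sign between labels in the comparison of SCA1 with WT mice, with 3 of 11 tested labels above 0 and 8 below, none of which passed the test. In PCs every SCA1 mouse was above every WT mouse, and in Nrgn neurons every SCA1 mouse was below, so that the log2 fold changes differed by 1.27. Between PCs and OL, where every SCA1 mouse was again below, they differed by 2.29, from 63 UMIs of *Sema3a* in OL in all. In OL the gene passed the count filter through the WT mice alone, so its fall there is a description. Of all genes, 12% had every SCA1 mouse above in PCs. Every SCA1 mouse was below for 2.21% of all genes in Nrgn and for 1.4% in OL. The difference between these labels was not tested. Against granule neurons the interaction was 0.72 ± 0.26 (SE) in PCs, -0.52 in the Dcn.Nnat label, where *Sema3a* was highest and the groups overlapped, -0.49 in Nrgn and -1.57 in OL, each with an adjusted p of 1 by edgeR.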

How the results depend on the processing

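No member was called between SCA1 and WT under any setting run: the smallest adjusted p was 0.691, 0.395 with DESeq2, 0.089 without a filter on low counts and 0.152 without WT mouse 2. The same replicate numbers were treated as unpaired, since same-numbered mice correlated in all 13 labels for numbers 1 and 3 but above 0.1 in 6 of 13 for number 2, and every mouse correlated best with its own number in 5 of 13. A fit with the replicate block also called 0 members (smallest adjusted p = 0.0658, 28 at an unadjusted p under 0.05). Over all genes of the 13 labels it called 194, beside 2 in the fit reported, 84 with DESeq2, 378 without a filter, 10 with RLE factors, 0 without batch and 2 to 21 with a mouse left out. The interaction in Chrm2 called 0 to 1 members with a mouse left out, 1 without WT mouse 1.

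Of the counts of members higher or lower in a label, 332 kept within 1.5 times of the reported count and 20 did not. With WT mice only, members called higher were 6 in the Dcn.Nnat label, 6 in Chrm2, 7 in Sln and 6 in GN, and those called lower were 6 in VA, 0 in Lgi2, 1 in Chrm2, 2 in Nefh, 1 in Rab3b, 0 in Nrgn, 1 in Sln and 9 in OL, from fewer mice. BG had 8 lower with labels shared with the Seurat cluster and Rab3b had 7 lower with DESeq2, and the cause was not tested. With a mouse left out, GN had 7 to 11 higher (7 without SCA1 mouse 3), Lgi2 1 to 2 lower and Nrgn 1 to 2 lower. No label difference reversed. Of the named fold changes, *Sema6d* in BG alone reversed, from -0.0268 without WT mouse 1 and -0.03 without SCA1 mouse 1 to 0.52 without SCA1 mouse 2. The highest label was kept for 30 of 31 members in nuclei of at least 3000 UMIs (*Plxnb2* moved). With labels shared with the cluster only 7 labels could be compared, and the highest of these 7 was the same for 30 members (*Sema3d* differed), so members that were highest in the other labels were not checked there. Leaving the precursor clusters out of OL, chosen after seeing the data, gave 0 called members of 19.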
